A study of Homo sapiens with 36 samples.

Results

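The INK4 and CIP/KIP families are the endogenous protein inhibitors of cyclin-dependent kinases (CDKs), and the 7 genes that encode them were followed through CDK4 and CDK4/6 inhibitor treatment of LNCaP cells. The members were fixed by gene symbol and not by their measured values, although earlier results of these data were known. They were the INK4 genes CDKN2A, CDKN2B, CDKN2C and CDKN2D and the CIP/KIP genes CDKN1A, CDKN1B and CDKN1C. Symbols were matched to Ensembl identifiers through the GENCODE v44 annotation. All 7 were found among the 29872 genes of the deposited table, and all 7 passed the filter on low values at both time points.

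LNCaP is an established human prostate cancer cell line that depends on the androgen receptor. Cells received vehicle, AU2-94 at 1 or 2 µM, atirmociclib at 1 or 2 µM, or ribociclib at 2 µM for 24 h or 72 h, with 3 biological replicates in each of the 12 groups. AU2-94 and atirmociclib are described by the study as CDK4-selective, and ribociclib is a dual CDK4/6 inhibitor. The labels of the vehicle libraries also carry a dose of 2 µM. Wells for 72 h were seeded more thinly than wells for 24 h, so time and seeding density cannot be told apart. The 36 total RNA libraries had summed normalised counts of 20675156 to 22692555. The 9 luminal prostate markers lay between 2239 and 55194 normalised counts in every library, and 7 of the 12 markers of basal, stromal, immune and endothelial cells had a median of 0. The exceptions were the basal KRT14 (median 41.8), the stromal COL1A1 (490.2) and ACTA2 (61.4), the macrophage marker CD68 (73.6) and the endothelial VWF (359), which were above 3 normalised counts in all 36 libraries. Their part in the results was not tested. In a bulk library, fewer cells with a transcript and less of that transcript per cell cannot be told apart.

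INK4 proteins (p16INK4A, p15INK4B, p18INK4C and p19INK4D) bind CDK4 and CDK6 and keep them from pairing with D-type cyclins. CIP/KIP proteins (p21, p27 and p57) bind cyclin-CDK complexes more broadly, block those that contain CDK2, and can also help cyclin D-CDK4 complexes to assemble. Both families slow the phosphorylation of RB, and several of the genes are themselves read out at set points of the cell cycle: CDKN2C and CDKN2D are known to be transcribed around S phase, and CDKN1A is a classical p53 target. CDKN2A encodes 2 unrelated proteins, p16INK4A and p14ARF, from different first exons, and a gene-level count cannot separate them.

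In GENCODE v44 (GRCh38), CDKN2C lies at chr1:50960745-50974634 on the plus strand, CDKN2D at chr19:10566460-10569059 on the minus strand, and CDKN2A at chr9:21967752-21995301 on the minus strand, next to CDKN2B at chr9:22002903-22009305, also minus. CDKN1A lies at chr6:36676460-36687337 (plus), CDKN1B at chr12:12685498-12722369 (plus) and CDKN1C at chr11:2883213-2885775 (minus). In the deposited table the members are ENSG00000123080 (CDKN2C), ENSG00000129355 (CDKN2D), ENSG00000147889 (CDKN2A), ENSG00000147883 (CDKN2B), ENSG00000124762 (CDKN1A), ENSG00000111276 (CDKN1B) and ENSG00000129757 (CDKN1C). Exons of 3 members overlap a long non-coding RNA on the opposite strand. CDKN2B-AS1 shares 593 bases, 15.3% of the CDKN2A exon bases. An unnamed gene, ENSG00000290102, shares 617 bases, 20.4% of CDKN2C. DINOL shares 146 bases, 4.87% of CDKN1A. The strand setting used for counting is not given in the sources used here, so reads from these stretches cannot be told apart. Apart from these overlaps, no other transcript matched a member over at least 100 bases at 98% identity.

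The sequences just upstream of the 4 members that fell most often are shown because their base composition differs widely. Each run is the 250 bases before a single RefSeq start site of the gene, 5′ to 3′ on the strand of the gene (GRCh38.p14). Capitals mark GC boxes (GGGCGG on either strand), the hexamer to which SP1-family factors bind. Other start sites of a gene were not examined, and the CDKN1A window lies inside the GENCODE span of its gene. The windows are chr1:50960495-50960744 for CDKN2C, chr9:21995325-21995574 for CDKN2A, chr19:10568980-10569229 for CDKN2D and chr6:36678464-36678713 for CDKN1A.
CDKN2C: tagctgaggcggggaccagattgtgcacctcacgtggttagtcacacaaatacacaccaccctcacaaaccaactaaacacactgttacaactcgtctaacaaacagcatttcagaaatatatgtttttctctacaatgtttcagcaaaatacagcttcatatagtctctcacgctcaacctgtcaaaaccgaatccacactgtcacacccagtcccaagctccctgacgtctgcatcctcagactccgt
CDKN2A: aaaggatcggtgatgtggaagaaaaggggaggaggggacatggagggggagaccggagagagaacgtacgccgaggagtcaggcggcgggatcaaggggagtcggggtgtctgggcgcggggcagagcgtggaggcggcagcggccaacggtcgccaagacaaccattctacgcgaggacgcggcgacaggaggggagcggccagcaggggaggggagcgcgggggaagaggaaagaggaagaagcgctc
CDKN2D: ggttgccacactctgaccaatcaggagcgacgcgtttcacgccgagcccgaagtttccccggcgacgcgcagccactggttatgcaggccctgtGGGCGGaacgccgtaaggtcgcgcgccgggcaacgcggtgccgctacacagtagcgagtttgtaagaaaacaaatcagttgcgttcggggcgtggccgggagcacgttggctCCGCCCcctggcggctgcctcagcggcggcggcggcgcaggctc
CDKN1A: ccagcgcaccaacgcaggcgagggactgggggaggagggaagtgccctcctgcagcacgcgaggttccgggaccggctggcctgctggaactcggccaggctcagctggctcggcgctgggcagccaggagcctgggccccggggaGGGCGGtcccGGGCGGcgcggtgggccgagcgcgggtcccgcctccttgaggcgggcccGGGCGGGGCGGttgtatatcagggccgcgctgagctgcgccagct

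The CDKN2C window was the poorest in G and C, at 45.6% with 7 CpG dinucleotides, against a median of 58.0% over 27305 RefSeq promoters. The CDKN1A window had 76.4% G and C and 4 GC boxes, of which 2 share 1 base. CDKN2D had 67.6% and 2 GC boxes, CDKN2A 66.8% and none. The CDKN2A window precedes the far end of the gene, where the p14ARF first exon lies, and not the p16INK4A start. RefSeq windows were found for 6 members, all but CDKN1C. CDKN2B held 2 GC boxes and CDKN1B held 1. A GC box was present in 42.3% of the 27305 promoters. An E2F motif was searched on both strands as TTCCCGC, with the variants spelled TTGGCGC and also TTCGCGC and, as the last spelling, TTGCCGC. It was in none of the 6 windows and in 11.0% of all promoters. A TATA box, searched on both strands as TATAAA, was likewise in none of the 6 and in 11.1% of all. A cell-cycle homology region core (TTTGAA or TTTAAA, both strands; 22.1% of promoters) was present only in CDKN1B, as TTTAAA 30 bases before the start. A match or its absence describes these letters in this window only.

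Treatment lowered the transcripts of a subset of both families, and no member was called higher. CDKN2C fell most, by 2.16-fold to 8.81-fold, and fell with every agent at both times, as did CDKN2A. CDKN1A fell in 9 of the 10 comparisons and CDKN2D in 6. CDKN1B stayed within 0.20 of vehicle on the log2 scale, and CDKN2B and CDKN1C, the least abundant members, did not pass the test against vehicle. These calls come from limma on log2(normalised count + 1), with the 6 groups of a time point fitted together and Benjamini-Hochberg adjustment over all genes tested, at an adjusted p of at most 0.05. Fold changes are on this scale, which understates the change of low genes.

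The counts of members called are given beside the share of all tested genes called in the same comparison. At 24 h, 3 of the 7 fell with AU2-94 at 1 µM, where 13.5% of 16137 tested genes were called lower and 14.3% higher. With AU2-94 at 2 µM 4 members fell (14.9% of all genes lower, 16.0% higher). Atirmociclib lowered 4 at 1 µM (15.4% and 16.6%) and 3 at 2 µM (16.2% and 18.6%), and ribociclib lowered 4 (15.2% and 16.8%). At 72 h, where 16341 genes were tested, AU2-94 lowered 3 at 1 µM (17.0% lower and 15.4% higher over all genes) and 3 at 2 µM (15.3% and 14.2%). Atirmociclib lowered 4 at 1 µM (19.8% and 20.0%) and 5 at 2 µM (19.6% and 20.9%), and ribociclib lowered 4 (15.4% and 15.5%). With so few members these shares are descriptions. The median log2 fold change of the 7 members was between -0.69 and -0.41 in the 24 h comparisons and between -0.80 and -0.12 in those of 72 h, while the median of all tested genes stayed within 0.01 of 0. No member was called higher by limma in any of the 10 comparisons with vehicle. At an unadjusted p under 0.05, 1 member was higher with AU2-94 at 2 µM at 24 h (CDKN1C) and 1 with ribociclib at 72 h (CDKN2B), and 0 in the other 8 comparisons. The 5 comparisons of a time point share the same 3 vehicle libraries, so their calls are not independent. Over all tested genes, 20.9% to 25.2% had every treated library below every vehicle library in these comparisons, and 19.7% to 25.1% had every one above. These shares hold for the 3 treated libraries of a single comparison. The share of all genes with every treated library of a time point below vehicle was not computed, so such statements on members are descriptions.

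CDKN2C, which encodes p18INK4C, showed the largest fall of the 7 genes. At 24 h the vehicle libraries had 370.0, 438 and 442 normalised counts. With AU2-94 the libraries had 119, 146 and 153 at 1 µM and 82.7, 108 and 108 at 2 µM. With atirmociclib they had 39.0, 41.6 and 60.9 at 1 µM and 48.1, 52.8 and 61.1 at 2 µM. All of these lay far below vehicle without overlap, and the atirmociclib libraries were lower than those of AU2-94. Ribociclib gave 60.4, 61.5 and 105, so that 1 library stood among those of AU2-94 at 2 µM. The others lay beside the highest atirmociclib libraries (60.9 and 61.1). On the log2 scale AU2-94 changed CDKN2C by -1.58 at 1 µM and -2.06 at 2 µM, atirmociclib by -3.14 and -2.93, and ribociclib by -2.49 (SE 0.21, adjusted p between 1.76e-09 and 2.29e-05). In linear terms CDKN2C was 2.99-fold lower with AU2-94 at 1 µM and 8.81-fold lower with atirmociclib at 1 µM.

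At 72 h the vehicle level of CDKN2C was much the same, with libraries at 373, 443 and 446 normalised counts. AU2-94 gave 184, 185 and 194 at 1 µM and 188, 191 and 203 at 2 µM, a narrow band below vehicle and above every library of the other agents. Atirmociclib gave 95.6, 114 and 125 at 1 µM and 57.7, 57.9 and 73.0 at 2 µM. The doses did not overlap here, and the share of all genes for which this held was not computed. Ribociclib gave 108, 131 and 133, which overlapped atirmociclib at 1 µM. These were log2 fold changes of -1.16 and -1.11 with AU2-94, -1.91 and -2.73 with atirmociclib and -1.76 with ribociclib (SE 0.13, adjusted p between 9.75e-12 and 5.74e-06). All 10 calls passed a fold mark of 1 on the log2 scale. The unnamed antisense gene that overlaps CDKN2C stayed between 0.285 and 5.61 normalised counts in its group means, far under the counts of CDKN2C itself.

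CDKN2A, the p16INK4A and p14ARF gene, fell in every comparison but by less. The 24 h vehicle libraries had 430.0, 467 and 500.0 normalised counts, and the 15 treated libraries lay between 256 and 358, all below them. At 24 h the log2 fold changes sat close together, from -0.70 with atirmociclib at 1 µM to -0.50 with atirmociclib at 2 µM (SE 0.12, adjusted p between 0.000138 and 0.00245). At 72 h vehicle had 443, 557 and 578. AU2-94 gave 335, 339.9 and 375 at 1 µM and 301, 359.8 and 377 at 2 µM. Atirmociclib gave 270.0, 270.3 and 302 at 1 µM and 197, 229 and 251 at 2 µM, and ribociclib 224, 241 and 258. All 15 treated libraries were again below every vehicle library, with those of atirmociclib at 2 µM and ribociclib the lowest. By 72 h the fall was -0.58 and -0.60 on the log2 scale with AU2-94, -0.90 and -1.21 with atirmociclib and -1.12 with ribociclib (SE 0.12, adjusted p between 1.50e-07 and 0.00105), so that only atirmociclib at 2 µM and ribociclib passed the fold mark.

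The antisense transcript of this locus moved with CDKN2A. CDKN2B-AS1, a long non-coding RNA gene that runs through the INK4 locus on the opposite strand, had means of 173 and 160.3 normalised counts in vehicle at 24 h and 72 h and as little as 25.6 in a treated group. It was called lower in 10 of 10 comparisons, its log2 fold changes running from -2.76 to -1.59 in the 24 h groups and from -2.42 to -0.93 in the 72 h groups. Over the 24 h groups CDKN2A means went from 466 in vehicle to between 288 and 329, and the part of the shared exon bases in this result was not tested. The next coding gene towards lower coordinates, MTAP, a methionine salvage enzyme, stayed between -0.05 and 0.07 at 24 h and was lower in 3 of 5 comparisons at 72 h (-0.31 to -0.15).

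CDKN2D, which encodes p19INK4D, was lower in all 15 treated libraries at 24 h. Vehicle libraries had 70.5, 83.2 and 93.7 normalised counts, and treated libraries lay between 34.5 with atirmociclib at 2 µM and 62.0 with AU2-94 at 1 µM. AU2-94 gave log2 fold changes of -0.60 and -0.81, atirmociclib -0.87 and -1.08, and ribociclib -0.69 (SE 0.22). Of these, 4 passed the test, and AU2-94 at 1 µM missed it narrowly (adjusted p = 0.0505). That comparison passed under 5 of the alternatives that keep all libraries, a pseudocount of 5, quantile normalisation, equal library totals, no trend and a fit of all 12 groups (0.0340 to 0.0481), and also without AU2-94 1 µM replicate 1 (0.0499) or vehicle replicate 2 (0.0488). The ribociclib call (0.0223) was lost with no filter (0.0537) and without ribociclib replicate 3, vehicle replicate 1 or vehicle replicate 3 (0.0588 to 0.111).

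At 72 h the 2 comparisons in which CDKN2D passed the test were those of atirmociclib. Vehicle libraries had 91.1, 92.0 and 96.5 normalised counts. Atirmociclib gave 48.0, 54.4 and 68.5 at 1 µM and 40.6, 42.7 and 73.7 at 2 µM, all below vehicle. AU2-94 at 1 µM gave 57.6, 69.7 and 72.5 and ribociclib 59.3, 70.2 and 87.8, also all below vehicle. Between 21.3% and 25.2% of all genes lay below vehicle in these comparisons. AU2-94 at 2 µM gave 75.3, 89.9 and 93.5, which overlapped vehicle. On the log2 scale the atirmociclib values were -0.72 and -0.87 (adjusted p = 0.0137 and 0.00340). AU2-94 gave -0.49 and -0.12 and ribociclib -0.38 (adjusted p = 0.0972, 0.734 and 0.206). AU2-94 at 1 µM passed with quantile normalisation (0.0284), and the call with atirmociclib at 1 µM was lost without its replicate 1 (0.0642). A threshold passed with one agent and missed with another does not by itself show that agents differ, and the agents are compared directly further on.

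CDKN2B, which encodes p15INK4B and is known as a TGF-beta target, was near the limit of what these libraries resolve. At 24 h vehicle libraries had 21.4, 26.3 and 36.1 normalised counts and treated libraries 6.15 to 32.4. Its log2 fold changes lay between -1.37 and -0.41 with an SE of 0.56. By limma 0 of 5 passed, and 1, atirmociclib at 2 µM, had an unadjusted p under 0.05. Libraries of that group had 6.42, 9.47 and 15.8 normalised counts, a log2 fold change of -1.37 (95% interval -2.55 to -0.19, adjusted p = 0.0666), which passed in a fit of all 12 groups (0.0302), in a fit of these 2 groups alone (0.0247) and without atirmociclib 2 µM replicate 2 (0.0496). In the 72 h groups the vehicle libraries had 8.62, 9.91 and 19.1. Ribociclib gave 23.1, 24.1 and 24.9, above every vehicle library, as were 19.7% of all genes in that comparison, at a log2 fold change of 0.96 (interval 0.14 to 1.79, adjusted p = 0.0717), which passed without vehicle replicate 2 (0.0308). The other 4 treatments lay between 0.07 and 0.29.

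**Figure D1:**
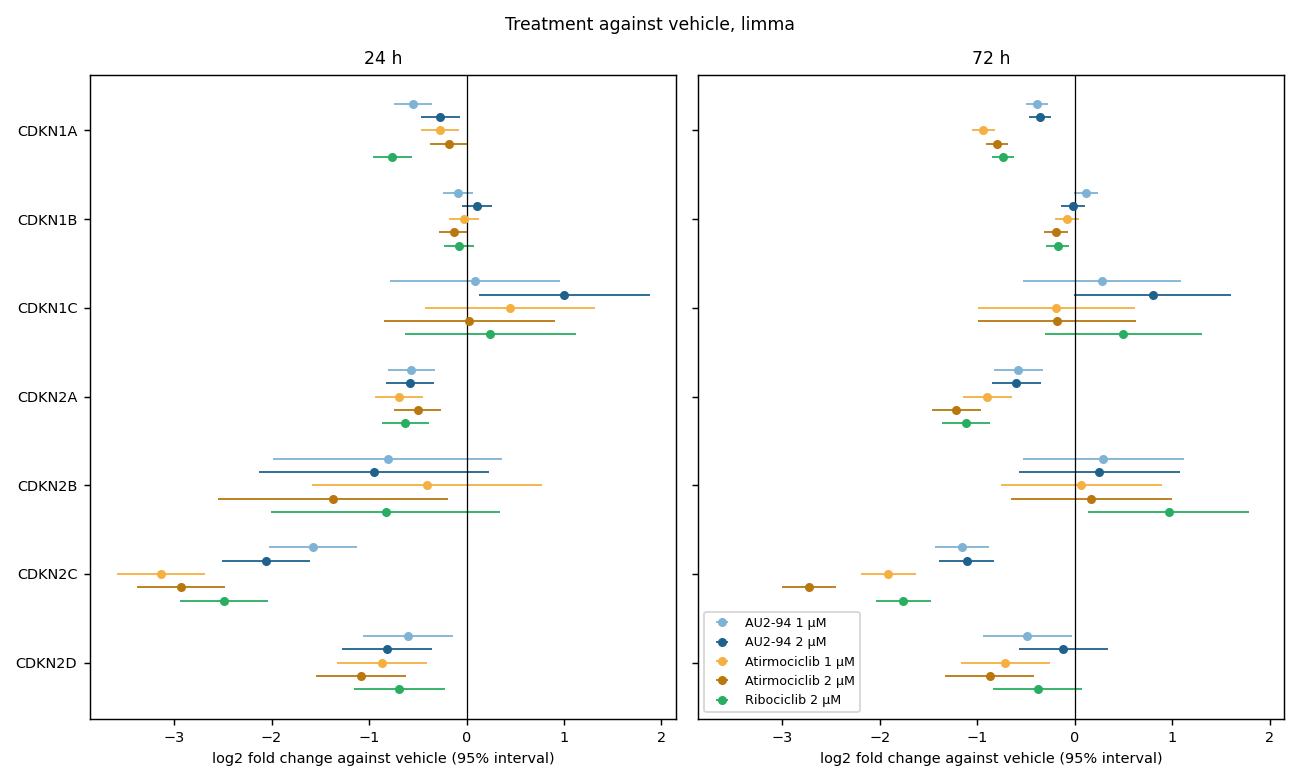
Log2 fold change against the vehicle of the same time point (horizontal axis, points) with 95% intervals from limma (lines), for the 7 genes and 5 treatments, 24 h on the left and 72 h on the right. CDKN2C lies between -3.14 and -1.11 throughout, CDKN1B stays within 0.20 of 0, and the widest intervals belong to CDKN1C and CDKN2B.

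Among the CIP/KIP genes, CDKN1A, which encodes p21 and is the classical p53-induced CDK inhibitor, was lower in all 30 treated libraries. At 24 h the vehicle libraries had 2399.6, 2459 and 2515 normalised counts. Ribociclib gave 1424, 1458 and 1469, a tight group at the bottom. AU2-94 gave 1476, 1730.3 and 1844 at 1 µM and 1791, 2119.7 and 2239 at 2 µM, and atirmociclib gave 1835, 2022 and 2263 at 1 µM and 1959, 2219 and 2346 at 2 µM. None of these libraries reached the lowest vehicle library, although the highest of atirmociclib at 2 µM lay close under it. Ribociclib changed CDKN1A by -0.76 on the log2 scale (adjusted p = 4.86e-06). AU2-94 changed it by -0.55 at the lower and -0.27 at the higher dose (0.000215 and 0.0362), and atirmociclib by -0.27 and -0.18 (0.0314 and 0.148), with an SE of 0.09 throughout. The smaller calls depended on single libraries. That of AU2-94 at 2 µM was lost without its replicate 2 or 3 or without any 1 of the 3 vehicle libraries (0.0501 to 0.194), and that of atirmociclib at 1 µM without its replicate 2 or 3 or any 1 vehicle library (0.0530 to 0.155).

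By 72 h the order of the agents was another one. Vehicle had 2810.0, 2894 and 3125 normalised counts. Atirmociclib gave the lowest values, 1485, 1536 and 1586 at 1 µM and 1671, 1671 and 1717 at 2 µM, followed by ribociclib with 1647, 1824 and 1835. AU2-94 gave 2167, 2218 and 2350 at 1 µM and 2287, 2287 and 2309 at 2 µM, above every library of the other agents. All 5 comparisons passed the test, with log2 fold changes of -0.94 and -0.80 for atirmociclib, -0.73 for ribociclib and -0.39 and -0.36 for AU2-94 (SE 0.05, adjusted p between 1.34e-10 and 6.90e-05). None passed the fold mark, since the largest fall was 1.92-fold. DINOL, the antisense RNA that overlaps CDKN1A, had group means of 0.357 to 1.92 normalised counts. The neighbouring splicing factor gene SRSF3 was lower in 9 of 10 comparisons, by -0.42 to -0.14 on the log2 scale at 24 h and by -0.76 to -0.47 at 72 h.

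CDKN1B, which encodes p27 and is known to be set mainly by protein turnover, changed least. Vehicle libraries had 1360.5, 1377 and 1407 normalised counts at 24 h, inside a treated range of 1125 to 1535. None of the 5 comparisons passed at 24 h (log2 fold changes -0.13 to 0.11, SE 0.07), and the intervals bound any change between -0.28 and 0.26. At 72 h vehicle had 1346, 1412 and 1488. Atirmociclib at 2 µM gave 1169, 1265 and 1273 and ribociclib 1242, 1248 and 1264, both below every vehicle library, at -0.20 and -0.18 on the log2 scale (SE 0.06, adjusted p = 0.0117 and 0.0273). The first call was lost without atirmociclib 2 µM replicate 3 or vehicle replicate 2 (0.0632 to 0.0650), the second without ribociclib replicate 1 or 3 or vehicle replicate 2 or 3 (0.0604 to 0.123), with quantile normalisation (0.0527) or with only these 2 groups fitted (0.0791).

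CDKN1C, the imprinted gene of p57, was scarce. Vehicle libraries had 18.5, 21.3 and 22.1 normalised counts at 24 h and 15.4, 21.0 and 25.3 at 72 h. AU2-94 at 2 µM stood above them at 24 h with 39.0, 43.0 and 45.0, without overlap, as did 21.3% of all genes, at a log2 fold change of 1.00 (interval 0.13 to 1.88, unadjusted p = 0.0268, adjusted p = 0.0773). It passed with only these 2 groups fitted (0.0141). At 72 h the same dose gave 23.6, 34.3 and 56.6, which overlapped vehicle (0.80, adjusted p = 0.131). The remaining treatments lay between -0.19 and 0.50. A neighbour in the same imprinted domain, SLC22A18, a transporter gene, was higher in 8 of 10 comparisons.

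Levels can be set against each other only per length. Per kilobase of merged exon, vehicle cells at 24 h held 820.5 ± 19.3 normalised counts (SD, n = 3) of CDKN1A, 149 ± 2.57 of CDKN1B, 138 ± 13.4 of CDKN2C, 119.8 ± 9.01 of CDKN2A and 54.8 ± 7.74 of CDKN2D. CDKN1C (8.32 ± 0.768) and CDKN2B (6.98 ± 1.86) were the lowest and did not differ beyond their spread, and neither did CDKN2C and CDKN2A. The place of CDKN2A depends on the length used: over its longest coding transcript it had 443 ± 33.3, above the 319 ± 5.49 of CDKN1B and the 143 ± 13.9 of CDKN2C on the same basis. At 72 h vehicle cells held 982 ± 54.5 of CDKN1A, 153 ± 7.71 of CDKN1B, 139 ± 13.7 of CDKN2C and 135 ± 18.6 of CDKN2A per kilobase of merged exon.

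**Figure D2:**
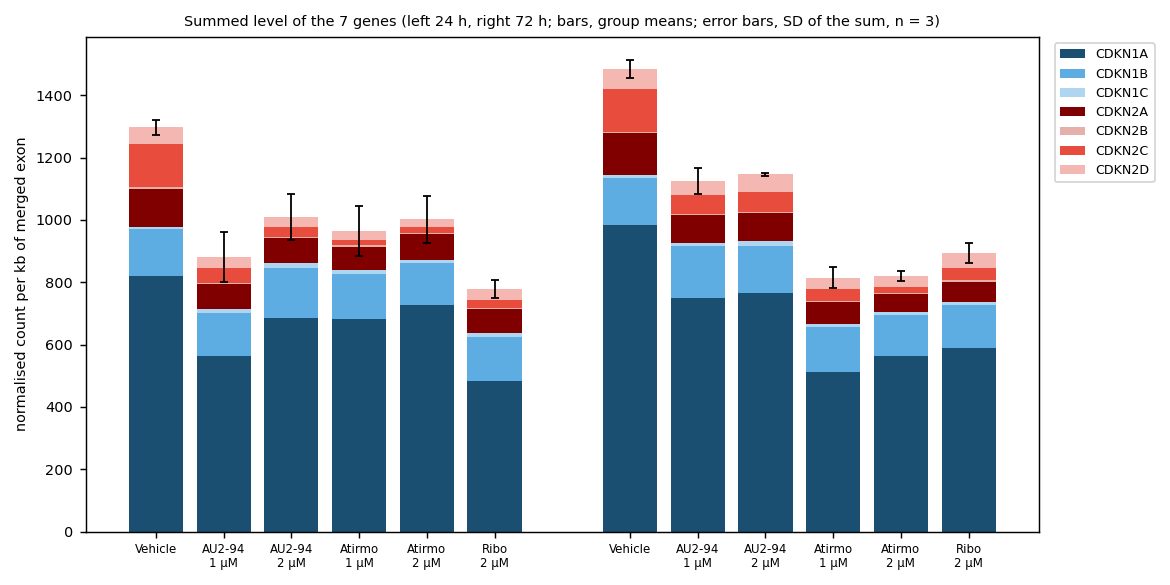
Summed normalised count per kilobase of merged exon of the 7 genes, stacked by gene (bars, group means; error bars, SD of the sum over 3 libraries), in the 6 groups at 24 h (left) and at 72 h (right). The vehicle bars reach 1298 and 1483, and the treated bars 777 to 1009.9 and 815 to 1147, with CDKN1A the largest block in each.

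Summed per kilobase over the 7 genes, vehicle cells held 1298 ± 24.6 normalised counts at 24 h and treated groups 777 to 1009.9. At 72 h the sum was 1483 ± 28.6 in vehicle and 815 to 1147 after treatment. The INK4 genes made up 24.6% ± 0.315 of the sum in vehicle at 24 h and 13.0% to 19.1% after treatment. At 72 h they made up 22.9% ± 2.56 in vehicle and 14.3% to 18.7% after treatment. These sums are descriptions, with no test, and on merged exon length CDKN1A supplies most of each. The shares depend on the length used. In vehicle at 24 h CDKN2A had 119.8 per kilobase of merged exon but 443 over its longest coding transcript.

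The agents were compared directly at matched dose and time in 8 pairs of groups. Among the members called, CDKN2C differed most between atirmociclib and AU2-94. At 1 µM and 24 h it was lower with atirmociclib than with AU2-94 by -1.56 on the log2 scale (interval -2.01 to -1.11, adjusted p = 0.000115), the only member of 7 to differ in that pair, where 4.64% of all genes did. At 2 µM and 24 h it was lower by -0.87 (-1.32 to -0.42, adjusted p = 0.0152), and CDKN1B by -0.24 (0.0455), so that 2 members differed against 9.44% of all genes. Both calls were fragile. CDKN2C was lost without AU2-94 replicate 1 or 3 or atirmociclib replicate 1 (0.0529 to 0.0627), and CDKN1B without AU2-94 replicate 1 or 2 or atirmociclib replicate 2 or 3 (0.0808 to 0.217) and with the replicate number as a block (0.0534). At 72 h CDKN2C was lower with atirmociclib by -0.75 at 1 µM (-1.04 to -0.47, adjusted p = 0.00118) and by -1.62 at 2 µM (-1.90 to -1.34, adjusted p = 7.27e-08).

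At 72 h the differences between atirmociclib and AU2-94 reached further members. At 1 µM 3 members were lower with atirmociclib, against 8.24% of all genes that differed: CDKN2C, CDKN1A by -0.55 (interval -0.66 to -0.43, adjusted p = 2.13e-06) and CDKN1B by -0.19 (0.0466). At 2 µM 5 members were lower, against 19.8% of all genes: CDKN2C, CDKN1A by -0.44 (-0.56 to -0.33, adjusted p = 9.35e-06), CDKN2A by -0.62 (-0.87 to -0.36, adjusted p = 0.00111), CDKN2D by -0.76 (-1.21 to -0.30, adjusted p = 0.0184) and CDKN1B by -0.18 (0.0347). The CDKN1B calls were lost with the replicate block (0.0683 at 1 µM and 0.0503 at 2 µM) and in 5 of 6 fits without 1 library at each dose, the exceptions being those without atirmociclib replicate 3 at 1 µM and replicate 2 at 2 µM. CDKN2D was lost without AU2-94 replicate 1 or 2 or atirmociclib replicate 1 or 3 (0.0558 to 0.0974). CDKN1C, at -0.98 (adjusted p = 0.0830), passed with the block (0.0442) and without AU2-94 replicate 1 (0.0422).

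**Figure D3:**
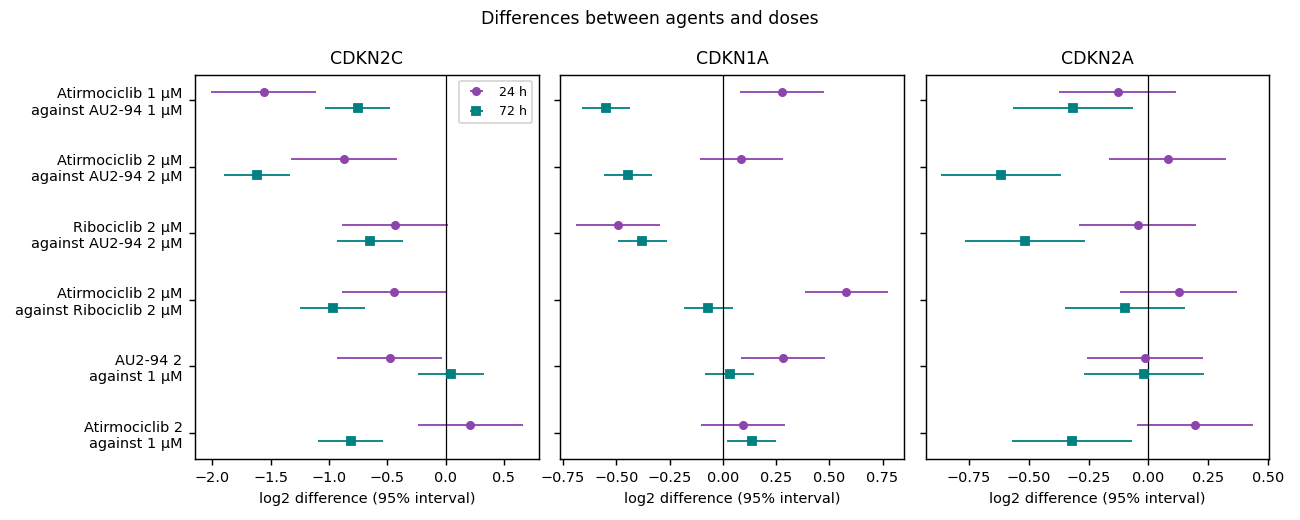
Differences in log2 expression (points) with 95% intervals from limma (lines) between agents at matched dose and between doses of an agent, for CDKN2C, CDKN1A and CDKN2A, with circles for 24 h and squares for 72 h; negative values are lower with the first-named agent or dose. CDKN2C lies left of 0 in each atirmociclib against AU2-94 comparison, between -1.62 and -0.75, and the CDKN1A points of these comparisons move from 0.28 and 0.09 at 24 h to -0.55 and -0.44 at 72 h.

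Ribociclib was compared with each of the other agents at 2 µM. Against AU2-94 at 24 h, limma called 0 of the 7 members, where 0.0372% of all genes differed, and 2 members had an unadjusted p under 0.05, CDKN1A and CDKN1B. CDKN1A was lower with ribociclib by -0.49 (interval -0.69 to -0.30, adjusted p = 0.0529), and it passed without AU2-94 2 µM replicate 3 (0.0202). CDKN2C stood at -0.43 in this pair (-0.88 to 0.02, adjusted p = 0.418). At 72 h 3 members were lower with ribociclib than with AU2-94, against 3.34% of all genes: CDKN2C by -0.65 (-0.93 to -0.37, adjusted p = 0.0120), CDKN2A by -0.52 (-0.77 to -0.27, adjusted p = 0.0226) and CDKN1A by -0.38 (-0.49 to -0.26, adjusted p = 0.000772). The CDKN2A call was lost without AU2-94 replicate 1 or 3 or ribociclib replicate 2 or 3 (0.0520 to 0.107) and that of CDKN2C without AU2-94 replicate 2 (0.0558). Against ribociclib, atirmociclib left CDKN1A higher at 24 h by 0.58 (0.38 to 0.78, adjusted p = 0.00103), the 1 member that differed, against 4.64% of all genes. CDKN2C stood at -0.44 there (-0.89 to 0.01, adjusted p = 0.296). At 72 h CDKN1A did not separate these agents (-0.07, interval -0.18 to 0.05), and CDKN2C was lower with atirmociclib by -0.97 (-1.25 to -0.69, adjusted p = 9.12e-05), the 1 member called, against 9.18% of all genes.

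Doubling the dose changed 1 member in 1 of 4 comparisons. With AU2-94, limma called 0 of the 7 at 24 h, against 0.409% of all genes, and 0 at 72 h, against 0% of all genes, with 4 and 1 members at an unadjusted p under 0.05. At 24 h the AU2-94 differences between doses included CDKN2C at -0.48 (interval -0.93 to -0.03) and CDKN1A at 0.28 (0.09 to 0.48), opposite in sign, and neither passed (adjusted p = 0.588 and 0.325). With atirmociclib at 24 h it called 0, against 0.0124% of all genes, and 0 had an unadjusted p under 0.05. At 72 h CDKN2C was lower at 2 than at 1 µM of atirmociclib by -0.81 (-1.10 to -0.53, adjusted p = 0.00340), the 1 member of 7, against 2.19% of all genes.

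The effect of treatment was then compared between 72 h and 24 h, by the difference of the effects in a fit of all 12 groups. The fall of CDKN2C was smaller at 72 h with AU2-94 at 2 µM, by 0.95 on the log2 scale (interval 0.43 to 1.47, adjusted p = 0.00762), the 1 member of 7 called, against 18.5% of all genes. With AU2-94 at 1 µM limma called 0 members, against 21.6% of all genes, and 1 (CDKN1B, 0.20) had an unadjusted p under 0.05. With atirmociclib at 1 µM 2 members were called, against 21.9%: the fall of CDKN2C was smaller by 1.23 (0.71 to 1.75, adjusted p = 0.000573), while that of CDKN1A was deeper by -0.66 (-0.89 to -0.44, adjusted p = 4.07e-05). With atirmociclib at 2 µM 2 were called, against 21.6%: the fall of CDKN1A was deeper by -0.62 (-0.85 to -0.40, adjusted p = 9.93e-05) and that of CDKN2A by -0.71 (-1.05 to -0.37, adjusted p = 0.00204), and CDKN2C kept its fall (0.20, interval -0.32 to 0.72). With ribociclib 2 were called, against 20.2%: the fall of CDKN2A was deeper by -0.49 (adjusted p = 0.0354) and that of CDKN2C smaller by 0.73 (0.0388). Both ribociclib calls depended on single libraries. That of CDKN2A was lost in 8 of 12 fits without 1 library (0.0564 to 0.102), and held without vehicle replicate 2 of either time, ribociclib replicate 2 of 24 h or ribociclib replicate 1 of 72 h. That of CDKN2C was lost in 7 of 12 (0.0752 to 0.120), and held without replicate 3 of any of the 4 groups or vehicle replicate 1 of 72 h. With ribociclib 3 members had an unadjusted p under 0.05. CDKN2B was not called, but it passed without ribociclib replicate 1 of 24 h (2.33, adjusted p = 0.0178) or vehicle replicate 2 of 72 h (2.12, 0.0441).

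In vehicle cells, 1 member differed between the times, against 7.50% of all genes. CDKN1A was higher at 72 h than at 24 h by 0.26 (interval 0.10 to 0.42, adjusted p = 0.0378), without overlap of the libraries. The call was lost without any 1 of the 3 vehicle libraries of 24 h or without replicate 1 or 2 of 72 h (0.0692 to 0.170). CDKN2B was lower at 72 h by -1.14 (-2.15 to -0.13, adjusted p = 0.168), also without overlap. The share of all genes without overlap between the vehicle groups was not computed.

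Across the 12 group means of log2(normalised count + 1), the members fell into different company. CDKN2C was closest to replication-coupled histone genes and an antisense RNA of TMPO, a nuclear envelope gene: r was 0.990 with H4C3, 0.988 with TMPO-AS1 and 0.987 with H3C10, among 2110 candidate genes. CDKN2D was most like CENPE, a kinetochore motor (0.970), EMP2 (0.970) and NDE1 (0.969). CDKN2A was most like QSER1 (0.966), BMAL2 (0.962) and ULBP1 (0.950). CDKN1A had weaker partners, NMU (0.858), RNFT2 (0.832) and PLK3 (0.822), the last also a p53 target. CDKN1B was most like KLF4 (0.945), CDKN1C like ENSG00000290399 (0.757) and CDKN2B like MIR193BHG (0.751). Over the 36 libraries r was lower, at 0.821, 0.492 and 0.266 for these pairs. For the first partners of CDKN2C, CDKN2D, CDKN2A and CDKN1A it was 0.965, 0.869, 0.903 and 0.720. Between members, r was 0.90 for CDKN2C with CDKN2D, 0.80 for CDKN1A with CDKN2A and 0.78 for CDKN2A with CDKN2C. These are descriptions over 12 points that share the vehicle contrast and the 2 times.

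The partners of the inhibitors were listed too. Of the cyclins and CDKs they bind, 10 of 11 were tested. In each comparison with vehicle 6 or 7 of these fell and 1, CCND1 (cyclin D1), rose. CCNA2 (cyclin A2) changed by -3.83 to -1.91 on the log2 scale at 24 h, and CCNE2 (cyclin E2), CDK1 and CDK2 fell in all 10 comparisons. Of 13 genes for the ubiquitin ligases that degrade p21, p27 and p57, 5 or 6 fell at 24 h and 7 or 8 at 72 h, and 1 or 2 rose. The medians of these lists were -1.08 to -0.45 and -0.35 to -0.11, where 13.5% to 19.8% of all genes were called lower. SKP2, the F-box protein that targets p27, was lower at 24 h (-0.84 to -0.56) and at 72 h (-0.81 to -0.51), and DTL, CDC20 and PCNA, the platform on which p21 is degraded, also fell in 10 of 10.

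The counts of the Polycomb, p53 and transcription factor lists stand beside 13.5% to 19.8% of all tested genes called lower and 14.2% to 20.9% called higher in the 10 comparisons. The counts that rose in the Polycomb and transcription factor lists lie near that share. Of 18 Polycomb genes, known to repress the INK4 locus, 4 to 7 fell and 2 to 4 rose, with list medians of -0.15 to -0.01 on the log2 scale and with EZH2 lower at 24 h (-1.88 to -1.12) and at 72 h (-1.32 to -0.55). EED and CBX2 fell in 10 of 10 comparisons and BMI1 in 7. CBX6 rose in 5 of 5 at each time, and JARID2 in 4 of 5 at 24 h and 5 of 5 at 72 h. Of 21 tested p53 targets, 6 to 9 fell and 4 to 6 rose (medians -0.19 to 0.17). CDKN1A moved with PLK3 and DDB2, which were lower in 10 of 10, and against SESN1, which was higher in 10 of 10 (1.07 to 1.21 at 24 h). GDF15 was called in none of the 24 h comparisons and higher in all 5 at 72 h. Of 19 tested transcription factors known to act on these genes, 3 to 7 fell and 3 to 5 rose (medians -0.16 to 0.03). E2F1 fell in 10 of 10, ETS1, an activator of the p16INK4A promoter, fell in 1 of 5 at 24 h and 5 of 5 at 72 h, and ID1 was higher in 4 of 5 at 24 h and lower in 5 of 5 at 72 h. The TGF-beta mediator SMAD3 was higher in 3 of 5 at 72 h.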

How the data were processed

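RNA sequencing of LNCaP cells gave 36 libraries in 12 groups of 3 biological replicates, grouped by the sample labels. The authors ran nf-core/rnaseq, aligned reads to GRCh38 with STAR 2.6.1d and used DESeq2. The deposited values are a signal, counts normalised by the authors, for 29872 genes; the counter and its strand setting are not given in the sources used here. Between 14.7% and 47.4% of values up to 12 per library were whole multiples of a single step within 0.01 steps, so reads were not recovered and count models were not used. Replicates are cultures of 1 cell line, so p-values measure the spread between such cultures.

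The test was limma 3.58.1 (R 4.3.3; lmFit and a trended eBayes) on log2 values after adding 1. A gene entered when at least 3 libraries of the fit reached a normalised count of 10, which left 16137 genes at 24 h, 16341 at 72 h and 16850 over the 12 groups. Each time point was a fit of its 6 groups, and changes between times came from a fit of all 12. Benjamini-Hochberg adjustment ran over all genes of a contrast, and calls needed an adjusted p of at most 0.05; the fold mark was an absolute log2 fold change of 1. The fit was tested on simulated data. Alternatives were other pseudocounts, filters and scalings, no trend, other groups in the fit, the replicate number as a block, and leaving out each library. Intervals are 95% intervals of limma.

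The labels carry the replicate number under the name batch. The main fit did not use it, and pairing libraries across groups by this number was an alternative only. Deviations of same-numbered libraries from their group means had a mean correlation of 0.00179 at 24 h (45 pairs, -0.0898 to 0.112) and -0.00217 at 72 h (-0.0797 to 0.0502). Libraries of unlike number had means of -0.000884 and 0.00109. These are largely fixed by the same-number means, because deviations cancel within each group, and are not a separate comparison.

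Lengths, overlaps and neighbours came from GENCODE v44, transcript matches from BLAST 2.17.0, and upstream sequences from RefSeq. Named genes were the 7 members, the 3 genes most like each (mean of at least 50, SD of group means of at least 0.3), the nearest coding genes, overlapping genes and up to 4 genes a pathway list by mean absolute change. Members, lists and rules were chosen with earlier results of these data known.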

Additional observations from a re-analysis of the deposited data

Results flagged for a closer look

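In a test of the difference itself (limma, all 12 groups), 7 effects of treatment on 3 members differed between 72 h and 24 h. Each of these contrasts called 0 to 2 of the 7 members and 18.5% to 21.9% of all tested genes, so the counts are descriptions. For CDKN2C the effect was less negative at 72 h by 0.95 with AU2-94 at 2 µM, by 1.23 with atirmociclib at 1 µM and by 0.73 with ribociclib. For CDKN1A the effect was more negative at 72 h, by -0.66 with atirmociclib at 1 µM and by -0.62 at 2 µM. For CDKN2A it was more negative by -0.71 with atirmociclib at 2 µM and by -0.49 with ribociclib. Both ribociclib calls were lost in most fits that left out a library. The seeding density of the wells changed with the time, and the 2 cannot be told apart.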

How the results depend on the processing

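Over the 7 members, 3184 alternative values were computed. Of these, 3048 counted as unchanged: a call kept with its direction, or no call and a shift within the residual SD of the gene. A further 99 lost a call, 28 gained one, 9 moved further with no call, and 0 calls reversed in direction. Values without a call could change sign, as for CDKN1C with AU2-94 at 1 µM at 24 h (-0.44 to 0.59). The CDKN1A call of AU2-94 at 2 µM at 24 h was lost with no filter, no trend or quantile normalisation (adjusted p = 0.0606 to 0.0688), and that of atirmociclib at 1 µM with no filter or no trend (0.0527 and 0.0613). CDKN2C and CDKN2A kept all 10 calls against vehicle under every alternative.

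The counts of members called that moved by more than 1.5 times were these. With equal library totals, 5 members were lower with atirmociclib at 2 µM at 24 h, with CDKN1A (adjusted p = 0.0443) and CDKN1B (0.0304) added, 1 changed its effect with AU2-94 at 1 µM and 1 with ribociclib, and 0 differed between the vehicle groups. With quantile normalisation, 1 was higher with AU2-94 at 1 µM at 72 h (CDKN1B), 1 differed between atirmociclib and AU2-94 at 2 µM and 24 h, 1 changed its effect with ribociclib, and 0 differed between the vehicle groups. With no filter these 3 last counts were 1, 0 and 0, and with no trend 1 differed between the 2 agents and 0 between the vehicle groups. With a mean of at least 100, and with all 12 groups fitted, 1 differed between ribociclib and AU2-94 at 24 h; with all 12 groups, 2 differed between atirmociclib and AU2-94 at 1 µM and 24 h. With only the groups compared in the fit, 1 was higher with AU2-94 at 2 µM at 24 h (CDKN1C, 0.0141), 1 differed between atirmociclib and AU2-94 at 2 µM at 24 h and 3 at 72 h, 1 between ribociclib and AU2-94 at 72 h, and 0 between doses of atirmociclib at 72 h. With the replicate block, 1 differed between atirmociclib and AU2-94 at 2 µM and 24 h, and apart from the 4 calls given beside their results no call changed.

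Calls of single members also turned where no count moved so far, apart from those given beside their results. For atirmociclib against AU2-94 at 2 µM and 24 h, CDKN2C was lost with quantile normalisation (0.0660) and CDKN1B with no filter, no trend or only 2 groups fitted (0.0706 to 0.149). At 72 h CDKN1B was lost at 1 µM with no filter, no trend, all 12 groups or only 2 groups (0.0538 to 0.0999) and at 2 µM with only 2 groups (0.0665), and CDKN2D with quantile normalisation or only 2 groups (0.0659 and 0.0641). CDKN1A gained a call between atirmociclib and AU2-94 at 1 µM and 24 h with all 12 groups (0.0292). For ribociclib against AU2-94 at 72 h, CDKN2A and CDKN2C were lost with only 2 groups (0.0982 and 0.0777).

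Leaving out 1 library gave 0 to 1 members higher with ribociclib at 72 h, 0 to 1 that differed between atirmociclib and AU2-94 at 2 µM and 24 h and 3 to 5 at 72 h, 0 to 1 between ribociclib and AU2-94 at 24 h, 1 to 2 between atirmociclib and ribociclib at 72 h, 0 to 2 for the change of effect of ribociclib and 0 to 1 between the vehicle groups. Depth limited CDKN2B and CDKN1C most, with SEs of 0.38 to 0.56.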
